A study of Rattus norvegicus with 6 samples.

Results

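Pancreatic polypeptide (PP) cells were taken from the single-cell RNA sequencing libraries of 6 rats as the barcodes in which the transcripts Ppy and Pyy made up at least 5% of the unique molecular identifiers (UMIs, each standing for 1 captured transcript), exceeded Gcg, Ins1 plus Ins2, and Sst each, and came with no UMI of the leukocyte gene Ptprc. Of 75981 barcodes kept from 78024, those with at least 200 genes and at most 25% of UMIs from mitochondrial genes, 1118 met this rule, which is 1.47%. They were 17.4% of the 6414 barcodes that passed the same rule for any of the 4 islet hormones, beside 1673 alpha (Gcg), 3575 beta (Ins1 plus Ins2) and 48 delta (Sst) cells. Since the hormone transcripts chose the cells, their levels are given as a description without a test.

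The rats were male Wistar animals in 3 groups of 2, and all tissue was pancreas digested with collagenase P and enriched for islets on a density gradient. The young rats were 2 months old and were taken at baseline. The old rats were 20 months old after 18 months on the normal diet, and the HFHF-old rats were 20 months old after 18 months on a high-fat, high-fructose diet, a dietary model of type 2 diabetes. Each library came from 1 rat, so a comparison of groups rests on at most 2 animals a group.

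PP cells are an endocrine type of the islet and are most frequent in the part of the pancreas that derives from the ventral bud. They secrete pancreatic polypeptide, which signals through the Y4 receptor, lowers exocrine secretion and food intake and is released after meals under vagal control. Peptide YY, encoded by Pyy, belongs to the same family, is best known from the L cells of the gut, and is also made in islets. Ppy and Pyy are neighbours in the genome. Both prohormones are cut by convertases and amidated at the C-terminus before they are stored in granules.

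The promoters of the 2 genes that define the class are shown because the genes lie close together and their transcripts were counted together. On the GRCr8 assembly (RefSeq), the 250 bases before the Ppy start are chr10:87556237-87556486 and those before the Pyy start chr10:87562471-87562720, both on the minus strand, with the starts 6234 bases apart. They are written 5′ to 3′ with the matches of TATAA (TATA box) and TGACAG (the MEIS motif) in capitals.
Ppy: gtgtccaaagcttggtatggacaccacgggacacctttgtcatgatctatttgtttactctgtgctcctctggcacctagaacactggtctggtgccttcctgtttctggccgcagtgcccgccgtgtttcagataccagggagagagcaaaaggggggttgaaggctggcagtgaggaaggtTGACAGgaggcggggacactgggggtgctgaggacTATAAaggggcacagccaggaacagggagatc
Pyy: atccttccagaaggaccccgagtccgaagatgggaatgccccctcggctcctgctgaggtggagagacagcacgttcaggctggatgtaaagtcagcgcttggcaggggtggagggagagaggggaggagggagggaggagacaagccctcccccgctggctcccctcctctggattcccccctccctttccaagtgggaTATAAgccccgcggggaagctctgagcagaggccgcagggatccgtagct
TATAA lay 32 to 28 bases before the Ppy start and 50 to 46 before the Pyy start, and it occurred in 24.0% of 33469 rat promoters of this length. TGACAG, the letters that MEIS proteins bind, lay 67 to 62 bases before the Ppy start and was not found before Pyy, against 15.8% of all promoters. The homeodomain core TAATTA was found in neither, against 4.9% of all promoters. Both strands were searched, the 3 motifs do not overlap in these windows, and a match is a description of the letters only. The guanine and cytosine content was 56.0% for Ppy and 63.6% for Pyy.

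The libraries held 77387928 to 166875258 UMIs. The library of 1 rat stood apart: HFHF-old replicate 2 had 1 PP, 3 alpha, 4 beta and 0 delta cells among 11738 barcodes, and 0.159% of its barcodes with Ptprc held a Ppy UMI, against 49.4 to 98.6% in the other 5 libraries where Ppy UMIs thus also occurred in immune barcodes. That library gave no sum over PP cells, so HFHF-old is 1 rat in all comparisons of genes. Libraries shared 636 of 77386 distinct barcode sequences. Of the PP barcodes, 25 had a sequence that also occurred in another library, and 1 sequence was a PP cell in both.

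The number of PP cells varied more between rats of a group than between the groups of young and old rats. There were 114 and 358 in the young, 70 and 526 in the old, and 49 and 1 in the HFHF-old rats (replicates 1 and 2). The share of PP cells among the barcodes kept was 0.651% (95% Clopper-Pearson interval 0.538 to 0.782) and 3.47% (3.12 to 3.84) in the young rats. In the old rats it was 0.936% (0.730 to 1.18) and 3.20% (2.94 to 3.48). In the HFHF-old rats it was 0.392% (0.290 to 0.517) and 0.00852% (0.000216 to 0.0475). The 2 HFHF-old rats had lower shares than all 4 others, and the young and old rats overlapped. The share rests on the limits of the rule, and the smallest p that 2 against 2 can give is 0.333 (exact two-sided permutation test). Differences in shares are therefore a description without a test. The mean difference between HFHF-old and old was -1.87 percentage points (n = 2 per group). It was -3.00 without old replicate 1 and -0.736 without old replicate 2. The intervals cover counting error only.

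Counted among the hormone cells alone, which leaves out exocrine and immune cells, the share of PP cells was 16.2% (13.6 to 19.2) and 15.9% (14.4 to 17.5) in the young rats. It was 12.4% (9.77 to 15.4) and 24.4% (22.6 to 26.3) in the old rats. HFHF-old replicate 1 had 6.70% (4.9998 to 8.77), while 1 of 8 hormone cells in replicate 2 gave 12.5% (0.316 to 52.7). The groups overlapped. Old minus young was 2.34 percentage points (n = 2 per group). HFHF-old minus old was -8.79 (n = 2 per group), or -14.8 without old replicate 1 and -2.77 without old replicate 2. Of the 2 HFHF-old values 1 rests on 8 hormone cells, and these differences too are a description without a test. The place of HFHF-old replicate 1 depended on depth and on the limit. With barcodes under 1000 UMIs left out and the others thinned to 1000, it had 17.0%, at 78 of 459 hormone cells against 49 of 731. That was above young replicate 2 (11.0%) and old replicate 1 (9.23%), and HFHF-old minus old was -1.37 percentage points. Thinning also takes away Ptprc UMIs, so that more barcodes can meet the rule, and the part of this was not tested. With the limit at 20% HFHF-old replicate 1 had 15.8% against 13.9% in old replicate 1. Without the top 1% of gene number the HFHF-old rats had 6.47% and 0 of 7 hormone cells, both below the 4 other rats, and HFHF-old minus old was -15.0. Among cells with at least 5000 UMIs, HFHF-old minus old was 2.40 percentage points, the opposite sign. Another 351 barcodes met the hormone limits and were left out because they held Ptprc. There were 26 and 113 in the young, 21 and 153 in the old and 38 and 0 in the HFHF-old rats. The PP cells kept were 114 and 358, 70 and 526, and 49 and 1. The 38 of HFHF-old replicate 1, at a median of 32354.5 UMIs, were the largest loss relative to the cells kept. Its share among the barcodes kept thus depended most on this limit.

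**Figure D1:**
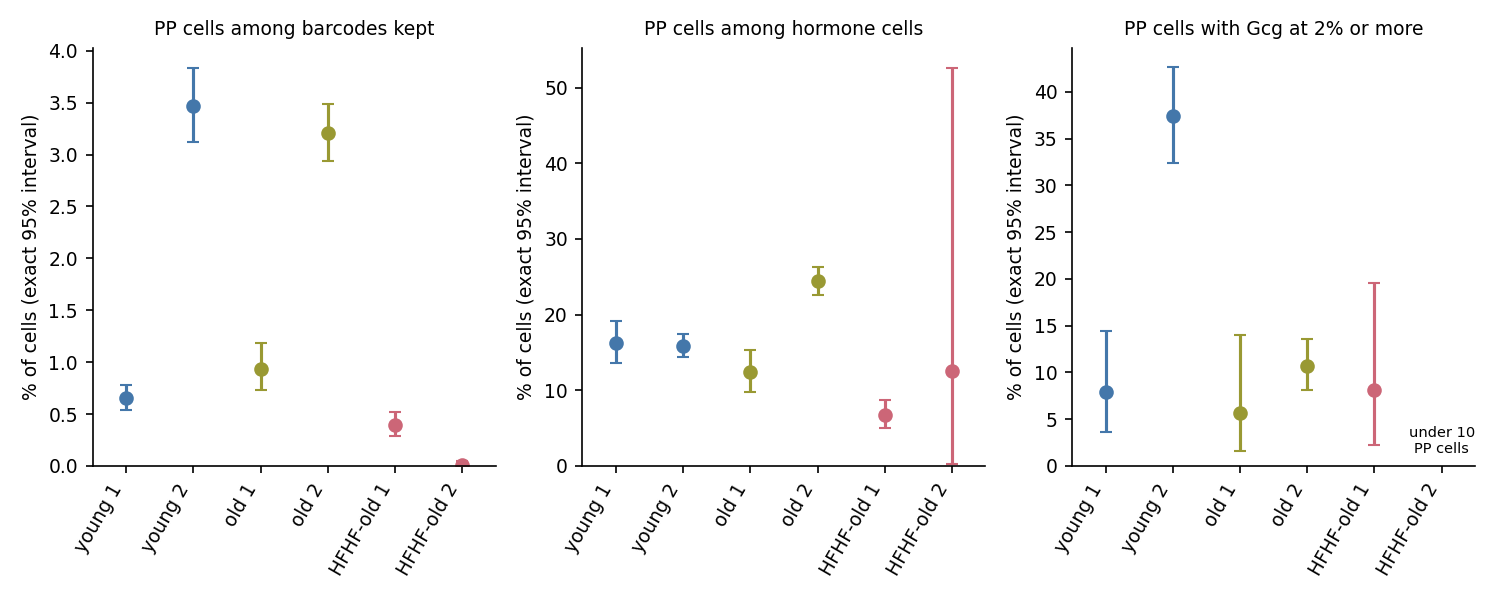
Share of PP cells among barcodes kept (left), among hormone cells (middle), and share of PP cells with Gcg at 2% or more of UMIs (right), in % for each rat. Points are 1 rat and bars are 95% Clopper-Pearson intervals. Both HFHF-old rats lie lowest in the left panel, the groups overlap in the middle panel, and young replicate 2 stands above all others at 37.4% in the right panel.

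Ppy was the most abundant of the hormone transcripts that define the class in every rat, and the balance of Ppy to Pyy differed between rats. Over all UMIs of its PP cells, Ppy made up 26.8 and 31.8% in the young, 30.2 and 46.1% in the old, and 25.03 and 7.36% in the HFHF-old rats. Pyy made up 3.85 and 4.62%, 5.60 and 0.634%, and 2.28 and 0.825% in the same order. Old replicate 2 stood apart from the rest, with the highest Ppy and the lowest Pyy: Pyy was 1.36% of the sum of both transcripts there, against 8.36 to 15.6% in the other 5 rats.

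The same held cell by cell. The median PP cell gave Ppy 25.1, 16.7, 27.0, 35.8 and 27.2% of its UMIs in young 1, young 2, old 1, old 2 and HFHF-old 1, and Pyy 3.11, 2.20, 1.77, 0.177 and 2.24%. The highest Pyy share of a cell was 16.7, 16.8, 15.6, 4.14 and 9.25%. A Pyy UMI was found in 69.6% of the PP cells of old replicate 2 and in 96.9 to 100% of those of the other 4 rats. PP cells with almost no Ppy also occurred: the lowest share, 0.0072% in a cell of young replicate 1, was of a cell chosen through Pyy.

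**Figure D2:**
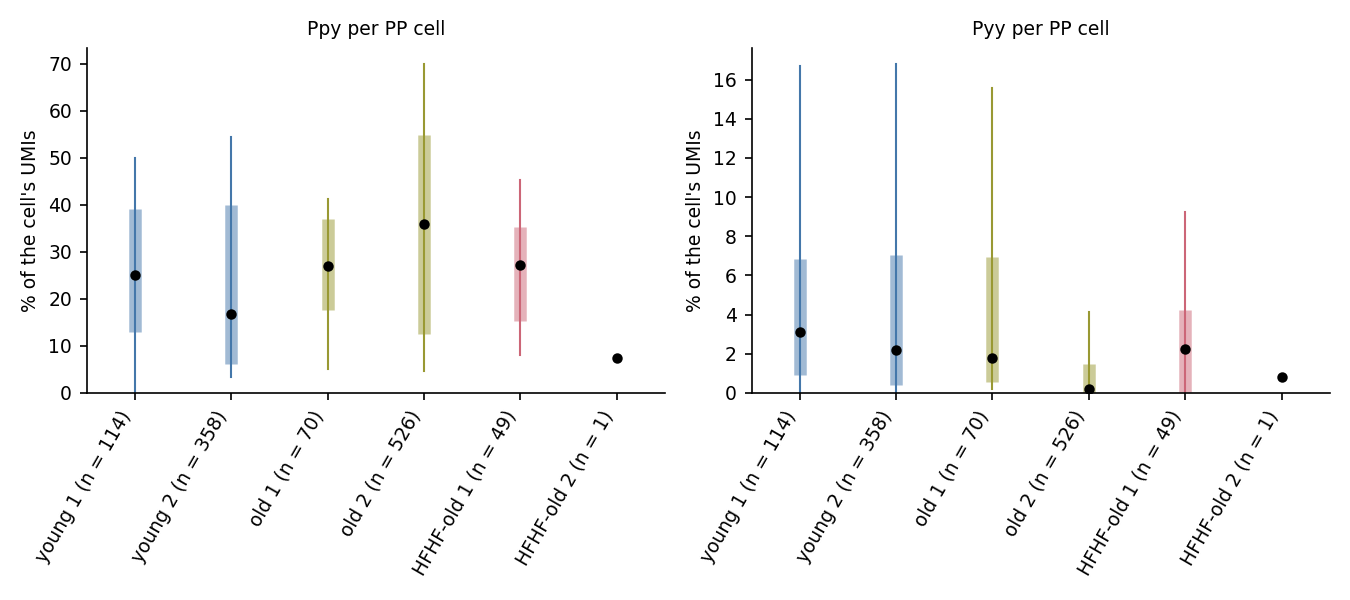
Ppy (left) and Pyy (right) as % of the UMIs of each PP cell, by rat, with the number of cells on the axis. Black points are medians, thick bars run from the 10th to the 90th percentile and thin lines from the lowest to the highest cell. The median Pyy share of old replicate 2 is 0.177%, below the other rats with more than 1 PP cell at 1.77 to 3.11%.

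The limit of 5% did not fall in a gap, and more cells lay just inside it than just outside. In young replicate 2 the 10th percentile of Ppy plus Pyy was 6.88%, and 175 of its 358 PP cells met a limit of 20%. The 10 cells just inside held 5.03 to 5.38% of Ppy plus Pyy and the 10 just outside 4.12 to 4.90%. Between 5 and 6% there were 32 cells, and between 4 and 5% there were 13 that otherwise met the rule.

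The depth of PP cells split the class. The median PP cell held 11264.5 UMIs in young 1, 3408 in young 2, 1758 in old 1, 1464 in old 2 and 19545 in HFHF-old 1. Of the 1118 cells, 520 had at least 5000 UMIs (98, 145, 28, 206, 42 and 1 by rat) and 291 had under 1000. The shallow cells carried more exocrine RNA: acinar marker genes, the digestive enzymes, made up 0.567 to 7.48% of the UMIs of cells under 5000 UMIs and 0.108 to 0.647% of those of deeper cells, and were higher in the shallow cells of all 5 rats. Etv1, a transcription factor fixed as a marker of the class but also high in alpha cells, was at 106 to 132 counts per 1000000 UMIs (CPM) in the 3 depth bins under 5000 UMIs of young replicate 2 and at 467 in its deeper cells. In old replicate 2 it was at 317 to 502 below and 444 above that depth. Few cells held much of a sum: the deepest barcode of old replicate 1, at 322789 UMIs, gave 26.9% of the UMIs of that rat's PP cells.

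**Figure D3:**
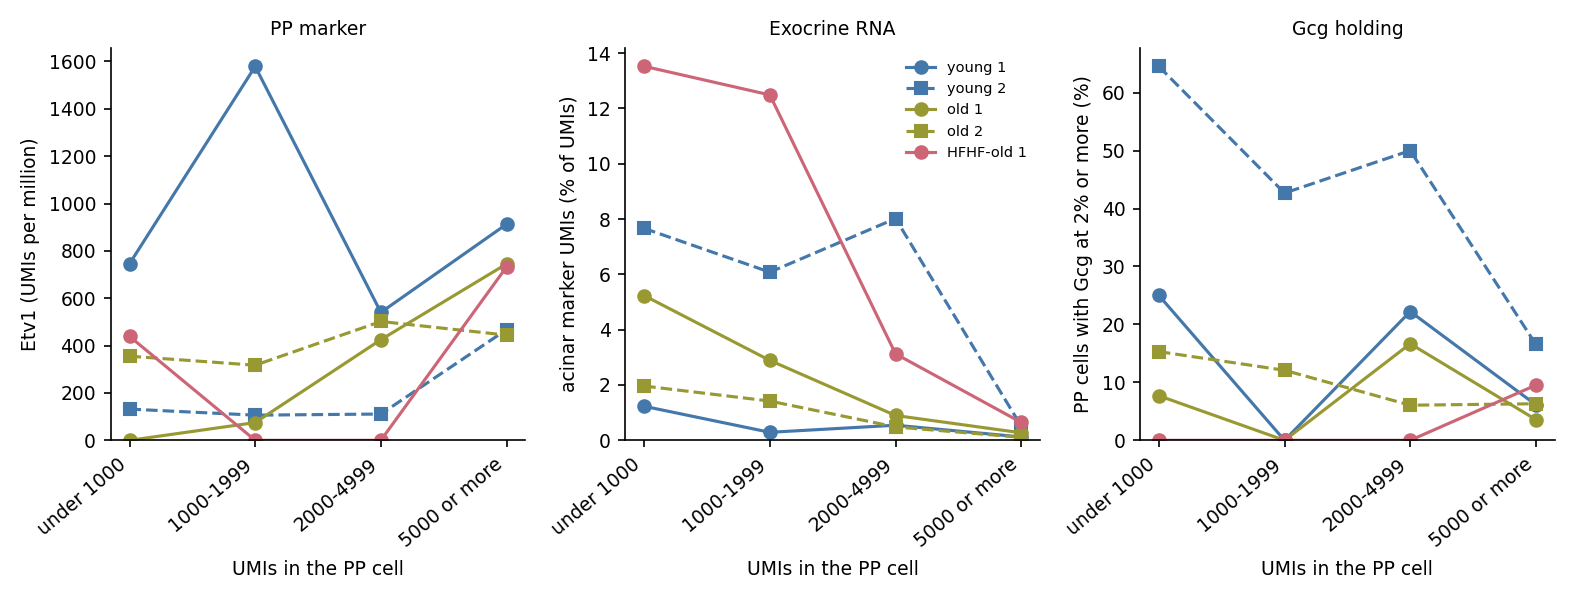
Etv1 (CPM, left), acinar marker UMIs (% of UMIs, middle) and PP cells with Gcg at 2% or more (%, right) against the UMIs of the PP cell in 4 bins, with 1 line per rat for 5 rats. Acinar RNA falls with depth to 0.108 to 0.647% in the deepest bin, and young replicate 2 has the highest Gcg-holding share in the bins under 5000 UMIs at 42.7 to 64.5%.

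Of the 3 further markers fixed for the class, Etv1 and Meis2 were present and Id4 was not. The share of PP cells with an Etv1 UMI was 93.9, 46.6, 47.1, 56.1 and 85.7% (young 1, young 2, old 1, old 2, HFHF-old 1), against 14.0 to 47.2% of the barcodes with Ptprc in the same libraries. For Meis2, a homeodomain factor of the TALE family, it was 90.4, 37.2, 42.9, 45.4 and 77.6%, against 5.58 to 19.9%. Each of these factors was thus more frequent in PP cells than in immune barcodes of all 5 rats, at median depths of 3331 to 10408 UMIs in the latter. Neither set PP cells apart from all other islet cells, as Etv1 did not pass the test against alpha cells and Meis2 did not against delta cells. Id4 gave 2, 3, 0, 3 and 13 UMIs, and the 13 came from 1 cell, so that Id4 did not mark these cells.

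Gcg, the alpha cell hormone glucagon, was also present at 2% or more of UMIs in 207 of the 1118 PP cells. By rat this was 7.89% (3.67 to 14.5, 9 of 114) and 37.4% (32.4 to 42.7, 134 of 358) in the young, 5.71% (1.58 to 14.0, 4 of 70) and 10.6% (8.14 to 13.6, 56 of 526) in the old, and 8.16% (2.27 to 19.6, 4 of 49) in HFHF-old replicate 1. Young replicate 2 stood apart and gave 134 of the 207. Old minus young was -14.5 percentage points (n = 2 per group), and without young replicate 2 it was 0.29. With the hormone limit at 20% it was -2.92. With Gcg at 5% or more it was -8.87, at 6.14 and 17.6% in the young and 1.43 and 4.56% in the old rats, without overlap (n = 2 per group). The rule itself uses Gcg, so these differences are a description without a test.

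Cells that should lack Gcg held it as well, most often in young replicate 2. Among barcodes with Ptprc, 1.53, 34.9, 1.49, 3.07 and 0.216% held Gcg at 2% or more (young 1, young 2, old 1, old 2, HFHF-old 1), and among beta cells 0, 70.6, 4.66, 9.81 and 1.52%. In young replicate 2 the share of PP cells lay between that of immune barcodes and that of beta cells. In HFHF-old replicate 1 it was above both, as it was in young 1 and old 1, and in old 2 it was close to that of beta cells. In PP cells of at least 5000 UMIs the share was 6.12, 16.6, 3.57, 6.31 and 9.52%. Gcg-holding cells were the shallower ones in 4 of the 5 rats, with medians of 6849, 1669, 2586.5, 914.5 and 11584.5 UMIs against 11418, 8480, 1758, 1676 and 19858 in the remaining PP cells, and old replicate 1 the exception. Gcg was not the only other hormone transcript in PP cells. Ins1 plus Ins2 reached 2% of UMIs in 172 of them (0, 124, 17, 27 and 4 by rat in the same order) and Sst in 3. The part of free RNA and of droplets with 2 cells was not tested.

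Only young replicate 2 and old replicate 2 had at least 10 PP cells on each side of the Gcg limit, and between these 319 of 9524 genes differed (3.35% of those tested; edgeR quasi-likelihood test, Benjamini-Hochberg adjusted p under 0.05 and a fold change over 1.5 in either direction, with the rat as a block), 302 higher (3.17%) and 17 lower (0.178%) in the Gcg-holding cells. Genes of alpha cells were among those higher. Irx1, a homeodomain factor of alpha cells, was at 34.1 and 48.8 CPM (here normalised UMIs without the genes of the rule) in Gcg-holding and at 3.17 and 0.494 in the remaining cells of the 2 rats (log2 fold change 4.41, SE 0.70). Irx2 was 2.37 higher (SE 0.75, adjusted p = 0.0476, edgeR), but did not pass in any of the 3 alternatives in which it was tested (adjusted p = 0.118 to 0.662). Higd1a, a mitochondrial protein induced by low oxygen, was at 262 and 268 against 12.1 and 11.4 (4.48, SE 0.34), and the potassium channel subunit Kcnip1 was 4.79 higher on the log2 scale.

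Genes of other cell types moved the same way. Higher in the Gcg-holding cells were 14 of 14 acinar markers (median log2 fold change 1.89, against -0.01 over all genes tested), 7 of 9 immune and 8 of 10 stromal and endothelial markers, among them Prss1, a trypsinogen, at 20523 and 1772 CPM against 3324 and 860. Lower were Pcsk1, a prohormone convertase, at 31.3 and 48.8 against 155 and 95.3 CPM (log2 fold change -1.71, SE 0.38), and Fxyd3, a regulator of the sodium pump, at 145 and 29.3 against 614 and 168 (-2.21, SE 0.35). Etv1 (-0.49, SE 0.32, adjusted p = 0.766) and Meis2 (-0.70, adjusted p = 0.379, edgeR) did not pass. Without the block 1 gene was called, and in cells of at least 5000 UMIs 32 were. Each named call was lost under at least 1 alternative, with highest adjusted p of 0.0707 for Kcnip1, 0.406 for Irx1 and 0.999 for Higd1a, Fxyd3 and Pcsk1 (edgeR or DESeq2). The log2 fold change stayed between -1.81 and -1.36 for Pcsk1 over 6 alternatives. Without cells over 2 times the median UMIs it was 0.97 for Higd1a and -0.16 for Fxyd3. Kcnip1 and Irx1 were not tested in that setting. In the 5 alternatives where they were tested, Kcnip1 stayed at 4.69 or more and Irx1 between 4.33 and 4.70.

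PP cells were compared next with the other islet cells of the same rats, on UMIs summed per rat and class for rats with at least 10 cells, in 1 edgeR fit with the rat as a block. PP cells and alpha cells differed in 1142 of 12650 genes (9.03%), 552 higher (4.36%) and 590 lower (4.66%) in PP cells, and the median log2 difference of all genes was -0.00. All values that follow are CPM in the order young 1, young 2, old 1, old 2 and HFHF-old 1.

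Transcription factors divided the classes. Meis2 was at 939, 436, 614, 495 and 750 CPM in PP and at 163, 107, 132, 168 and 250 in alpha cells (log2 fold change 1.99, SE 0.18, edgeR adjusted p = 4.8e-06). It was higher in PP cells in every rat. A same direction in every rat was found for 25.8% of the genes tested. Etv1 was at 1303, 773, 1181, 944 and 913 in PP and at 552, 539, 968, 692 and 839 in alpha cells, higher in PP cells in each rat but not past the test (0.53, SE 0.32, adjusted p = 0.384).

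Of 42 genes tested from the list of islet transcription factors, 6 were higher and 8 lower in PP cells (median -0.16). The 6 include Camk1d, which encodes a kinase and not a factor (1.80, call lost in 2 of 13 alternatives). Besides Meis2, the higher ones included its partner Pbx3 at 77.4, 75.4, 142, 116 and 196 against 34.4, 21.6, 18.2, 31.4 and 37.3 CPM (1.95, SE 0.19). Pdx1, known from beta and delta cells, was low in both classes and higher in PP cells (1.97, SE 0.42), and Hnf4a (0.75) and Glis3 (0.77) were higher too. Neurog3, the factor of endocrine progenitors, is in the list of delta markers and was at 11.6, 9.01, 8.17, 2.46 and 3.87 against 0, 0, 0, 0.361 and 0 (5.59, SE 0.80).

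The factors that were lower are those of the alpha programme and of islet cells in general. Irx1 was at 15.5, 8.54, 5.44, 5.41 and 5.15 in PP and at 127, 145, 275, 117 and 77.5 CPM in alpha cells (-4.15, SE 0.34). Rfx6, a factor needed for the formation of islet cells, was at 9.67, 3.80, 6.80, 3.93 and 14.2 against 189, 85.3, 150, 122 and 129 (-4.33, SE 0.38). Irx2 (-3.26), Pou3f4 (-1.17), St18 (-0.98), Isl1 (-0.90) and Myt1 (-0.89) were lower too. Irx1 and Rfx6 were lower in PP cells in every rat, and 25.8% of the genes tested had the same direction in every rat. In all, 7 of 11 alpha markers were lower in PP cells and none was higher (median -1.34).

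The machinery for prohormones and granules differed as well, with 7 of 26 genes higher and 2 lower (median 0.28). Pcsk1, which cuts prohormones at paired basic residues, was at 121, 145, 227, 99.8 and 130 CPM in PP and at 10.6, 13.7, 2.48, 18.4 and 0 in alpha cells (3.62, SE 0.39). Qpct, the glutaminyl cyclase, was at 86.1, 161, 96.6, 221 and 29.6 against 7.86, 28.1, 14.0, 23.8 and 0 (3.10, SE 0.31). Chgb, a granule protein of the chromogranin family, was at 2599, 5166, 6440, 3582 and 6975 against 832, 1409, 1622, 1547 and 2869 (1.58, SE 0.24). The amidating enzyme Pam (1.00), Chga (0.92), Scg2 (0.72) and Furin (0.62) were the other 4. Gnas, which encodes the stimulatory G protein subunit, was at 30.9, 67.8, 13.6, 15.7 and 18.0 against 544, 474, 311, 150 and 290 (-3.52, SE 0.31), and Cryba2 was lower too (-2.83). Of 33 exocytosis genes, 3 were higher (Sytl4, Rab3d, Rims1) and 1 lower (Rab3b).

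Receptors and channels separated the classes in both directions. Of 28 receptors tested, 5 were higher and 5 lower (median -0.34). Chrm3, the muscarinic receptor through which the vagus acts on islet cells, was at 29.0, 21.3, 21.8, 24.1 and 32.2 CPM in PP and at 1.97, 1.44, 3.30, 2.16 and 8.62 in alpha cells (3.30, SE 0.32). Ffar2, a receptor for short-chain fatty acids (1.62, SE 0.40), the incretin receptor Gipr at 113, 118, 102, 129 and 94.1 against 32.4, 48.97, 59.4, 39.3 and 71.8 (1.27, SE 0.20), Sstr3 (0.81) and Gria2 (0.59) were higher. Avpr1b, a vasopressin receptor, was at 0.967, 0.474, 1.36, 0.983 and 0 against 22.4, 28.4, 40.5, 32.1 and 37.3 (-5.29, SE 0.52). Gpr119 (-2.28), the PACAP receptor Adcyap1r1 (-2.11), Ffar3 (-1.30) and the somatostatin receptor Sstr2 (-1.11) were lower. Of 33 genes of excitability and glucose sensing, the sodium channel Scn2a (2.43), the T-type calcium channel Cacna1h (1.94) and the potassium channel Kcnk16 (0.81) were higher, and 4 were lower, among them Kcnma1 (-1.87), Cacna1c (-1.31) and Cacna2d1 (-0.70).

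Among the genes outside these lists, the largest differences were in genes of diverse function. Fxyd3 was at 218, 576, 112, 170 and 245 CPM in PP and at 0.246, 20.5, 0.826, 17.3 and 0 in alpha cells (5.14, SE 0.66). Apoh, a plasma glycoprotein, was at 101, 114, 442, 461 and 218 against 2.70, 3.60, 13.2, 37.1 and 66.0 (4.07, SE 0.58). Ugt2b (4.94), Rprm (4.49), Anxa13 (4.33), Cds1 (4.25), Slc35d2 (4.16), the irritant-gated channel Trpa1 (4.00), Dsp (3.95) and Cyp4x1 (3.90) followed. Lowest against alpha cells were the kinase of pyruvate dehydrogenase Pdk4 at 1.93, 2.37, 0, 0.983 and 0 against 74.9, 65.2, 80.1, 105 and 109 (-6.00, SE 0.52), then Mgat4c (-5.97), Avpr1b, Baiap3 (-5.24), the ectonucleotidase Entpd3 (-4.98), the monoamine oxidase Maob (-4.97), Cnnm1 (-4.91), Tll1 (-4.87), the glutamine transporter Slc38a5 (-4.84) and Wdr49 (-4.80). Ddc, the decarboxylase of amine synthesis, was at 112, 235, 186, 220 and 186 against 17.9, 29.2, 40.5, 25.2 and 28.7 (2.77, SE 0.25), and Sox9, a factor of ductal cells, was also higher (2.60, SE 0.45).

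Stress lists changed little or in few members. Of 30 genes of endoplasmic reticulum stress 4 were higher (Ero1b, Ssr4, Pdia6, Xbp1) and none lower (median 0.20). Of 35 oxidative stress genes 2 were higher (Gpx2, Prdx4) and Mt1 was lower (median 0.18), and of the 8 oxidoreductase genes on which the study centred, a list chosen on these libraries, Ero1b was higher and Atox1 and Nos1 were lower. Of 38 genes of inflammation and interferon, Il6r and Il1r1 were lower and none was higher. The immediate early genes that tissue digestion induces were lower in PP cells for 8 of 22 (median -0.46), among them Nr4a1 at 26.1, 17.1, 57.2, 52.6 and 65.7 against 118, 50.4, 368, 263 and 118 CPM (-1.99, SE 0.25) and Egr1 (-1.38). Of 21 genes of growth arrest and senescence Igfbp7 alone was higher (0.98).

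Markers of exocrine, immune and red cells did not pass between the sums of PP and alpha cells. None of 14 acinar (median -0.13), 10 immune (0.17) or 2 red cell genes differed in the edgeR test, and of 11 stromal and endothelial markers Igfbp7 alone was higher. Of the remaining marker lists 3 of 10 beta, 3 of 6 delta, 1 of 3 enterochromaffin and 1 of 9 ductal markers were higher, and 1 beta, 1 delta and 1 of 2 epsilon markers (Ghrl) were lower. Of alpha cells, 3.899, 20.6, 5.71, 10.4 and 40% held Ppy plus Pyy at 2% or more. Leaving out cells over 2 times the median UMIs brought the 1142 calls to 138, and without old replicate 1 there were 738; over all 13 alternatives Meis2 stayed between 1.81 and 2.34, Irx1 between -4.76 and -3.11, Rfx6 between -5.14 and -4.13 and Pcsk1 between 3.28 and 4.41, each past the threshold.

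Many of the smaller differences from alpha cells did not hold under every alternative. Of the 94 genes followed singly and called, 35 kept their call wherever they could be tested and 59 lost it in at least 1 alternative. Of these, 53 lost it without cells over 2 times the median UMIs, a setting that left out 401 of the 1118 PP cells. The signs of the 59 genes did not turn. The factors that lost their call were Pou3f4, St18, Sox9, Isl1, Myt1, Hnf4a and Glis3, with a highest adjusted p from 0.148 for Pou3f4 to 0.864 for Glis3 (edgeR or DESeq2). Among granule and exocytosis genes these were Rims1, Rab3b, Chgb, Sytl4, Pam, Chga, Furin, Rab3d and Scg2, from 0.0920 for Rims1 to 0.910 for Scg2. Among receptors and channels these were Adcyap1r1, Ffar3, Gipr, Ffar2, Scn2a, Cacna1c, Gpr119, Cacna1h, Sstr2, Cacna2d1, Kcnk16, Gria2 and Sstr3, from 0.0761 for Adcyap1r1 to 0.909 for Sstr3. Of the stress and digestion genes named, Gpx2 alone kept its call; the highest adjusted p of the others ran from 0.123 for Il6r to 0.827 for Ssr4, and Nr4a1 shrank to -1.02 (adjusted p = 0.382, edgeR). Cyp4x1, Cds1, Igfbp7 and Ghrl also lost theirs, from 0.0601 for Cyp4x1 to 0.409 for Ghrl. Etv1, which did not pass against alpha cells, was at -0.05 without cells over 2 times the median UMIs.

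**Figure D4:**
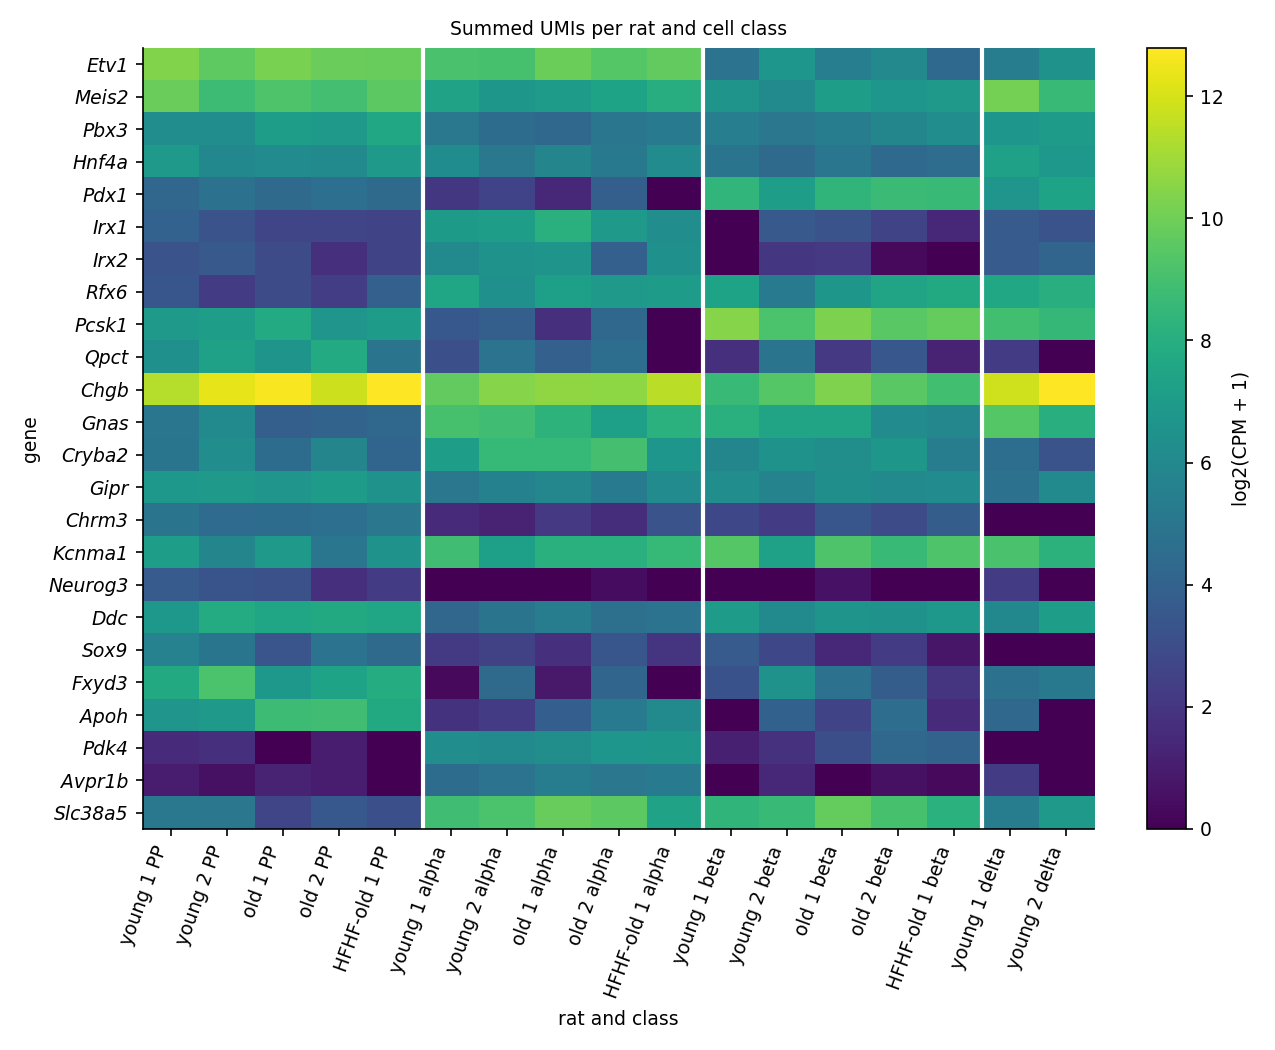
Levels of 24 genes as log2(CPM + 1), by colour, in the sums per rat over PP, alpha, beta and delta cells (columns, white lines between classes), where delta sums exist for the 2 young rats only. Meis2 is high in PP and delta cells, Etv1 in PP and alpha cells, and Irx1, Pdk4 and Avpr1b in alpha cells.

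Against beta cells 3223 of 12650 genes differed (25.5%), 1309 higher (10.3%) and 1914 lower (15.1%) in PP cells (median of all genes -0.07). Etv1 was at 28.5, 105, 43.1, 64.6 and 19.4 CPM in beta cells, and so PP cells were 4.36 higher on the log2 scale (SE 0.38, edgeR adjusted p = 1.01e-06). Meis2 was at 98.7, 67.1, 142, 104 and 121 in beta cells (2.58, SE 0.19). Fev, a factor of serotonergic and endocrine precursor cells, was 3.65 higher. Each of these 3 factors was higher in PP cells in every rat, and a same direction in every rat was found for 35% of genes.

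The beta cell genes were low in PP cells, with 9 of 10 beta markers lower. Pdx1 was at 17.4, 26.6, 20.4, 24.6 and 20.6 CPM in PP and at 340, 141, 327, 426 and 390 in beta cells (-3.81, SE 0.32). The glucose transporter Slc2a2 (-6.94), Ucn3 (-6.45), Nkx6-1 (-5.90) and Iapp (-3.66) were lower too. Mafa and Wnt3 had no UMI in any of the 5 PP sums, which made beta cells at least 37.5-fold and at least 61.7-fold higher when PP cells are set to 3 UMIs over the group. Gad2, which makes the transmitter GABA (-7.74), the thyrotropin-releasing hormone Trh (-7.03), the GLP-1 receptor Glp1r (-6.67) and the glucagon receptor Gcgr (-6.64) were among the largest. Rfx6 was lower than in beta cells as well, at -4.24 (SE 0.37).

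Among the genes highest against beta cells were Il1rapl2, an accessory protein of the interleukin-1 receptor family, at 105, 79.2, 720, 434 and 390 against 2.38, 7.52, 14.2, 13.4 and 5.20 CPM (5.18, SE 0.34), the ephrin receptor Epha4 (5.09), angiotensinogen Agt (4.82), Apoh (4.80), the adhesion molecule Chl1 (4.76) and the sodium channel Scn9a (4.55). Pcsk1 ran the other way than against alpha cells: it was at 1410, 581, 1248, 730 and 872 CPM in beta cells (-2.73, SE 0.33). Without cells over 2 times the median UMIs this was -0.66 for Pcsk1 (adjusted p = 0.386) and -2.51 for Nkx6-1 (adjusted p = 0.143, edgeR), and neither passed. Of 43 genes followed singly and called against beta cells 7 lost their call in at least 1 alternative, and several others kept it at a smaller size. In the same alternative Etv1 was at 2.19, Fev at 2.33, Epha4 at 2.65, Apoh at 2.93, Pdx1 at -2.19, Rfx6 at -2.59, Glp1r at -3.41 and Gad2 at -4.86. Markers of other cell types moved with this comparison, as 14 of 14 acinar (median -2.13) and 10 of 10 immune markers (median -1.96) were lower in PP cells, and the median beta cell held 746 UMIs in HFHF-old replicate 1. Of 30 endoplasmic reticulum stress genes 15 were lower in PP cells and 1 was higher, and the part of depth in this was not tested.

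Delta cells could be summed in the 2 young rats only, from 22 and 10 cells, and 585 of 12650 genes differed from PP cells (4.62%), 201 higher (1.59%) and 384 lower (3.04%) in PP cells. Meis2 did not pass, at 1106 and 396 CPM in delta cells against 939 and 436 in PP cells of the same rats (-0.31, SE 0.26, edgeR adjusted p = 0.577). Etv1 was at 42.6 and 94.8 in delta cells (4.08, SE 0.67, edgeR adjusted p = 0.0017). Over 12 alternatives Etv1 stayed between 3.03 and 4.56, but its call was not kept in all of them. Hhex, the factor of delta cells, was at 340 and 327 CPM in delta cells and at 0.967 and 3.32 in PP cells (-7.03, SE 0.54). The neuropeptide genes Calcb (-11.66) and Cartpt (-7.75), Iapp (-3.61) and Rfx6 (-5.28) were also lower in PP cells. Without young replicate 1 there were 135 calls and without young replicate 2 there were 366.

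Etv1 and Meis2 thus had different patterns in these sums: Etv1 was high in PP and alpha cells and low in beta and delta cells, and Meis2 was high in PP and delta cells. Rfx6 was at 3.80 to 14.2 CPM in the PP sums and at 37.9 to 258 CPM in the sums of the other 3 classes. A correlation over the 17 sums of a class in a rat, among 7944 genes, placed closest to Ppy plus Pyy the genes Agt (Pearson r = 0.911), Aga (0.910), Calb1 (0.896), Hopx (0.888), Mfge8 (0.888), Nat9 (0.882), Prdx4 (0.872), Apoh (0.870), Crp (0.867) and Pdzk1ip1 (0.864). The sums of a rat share a library, and the coefficients are descriptions without a test.

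Between the ages, few genes passed the test in PP cells. Of 10445 genes tested over the 5 rats with at least 10 PP cells, 2 were higher in the old than in the young rats and none lower (0.0191% in all; edgeR, adjusted p under 0.05 and a fold change over 1.5), with 290 at an unadjusted p under 0.05 and 8 calls by DESeq2. RT1-Bb, the beta chain of a class II major histocompatibility molecule, was at 0.984 and 2.96 CPM in the young, 51.6 and 55.9 CPM in old rats and 1.34 in HFHF-old replicate 1 (log2 fold change old minus young 4.54, SE 0.52, adjusted p = 0.0152). The old rats' 37 and 111 UMIs lay in 20 and 68 PP cells. In barcodes with Ptprc of the same libraries it was at 47.9, 34.4, 2091, 1211 and 48.2 CPM, so the same rats were high there, at a level far above that of PP cells, and the part of free RNA was not tested.

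The other gene, AC127784.2, named after its values were seen, had no UMI in the young rats and 48 and 103 in the old rats, which is at least 56.7-fold higher with the young set to 3 UMIs over the group (adjusted p = 0.00488, edgeR). In barcodes with Ptprc it was at 0.162 and 0.0839 CPM in the young and 26.4 and 18.2 in the old rats, so PP cells were not alone in this difference. Both calls were lost without young replicate 2 and without old replicate 1, where 0 genes were called, and without young replicate 1 there were 98 calls and without old replicate 2 there were 31.

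The genes next in order did not pass. Camk4, a calcium-dependent kinase, was at 0, 0.494, 30.7 and 17.1 CPM in young 1, young 2, old 1 and old 2 (adjusted p = 0.0662, edgeR). The potassium channel Kcnh8 was at 38.4, 18.3, 0 and 0.504 (adjusted p = 0.0997, edgeR), and Igfbp2, which binds insulin-like growth factors, at 29.5, 40.5, 0 and 3.02 (adjusted p = 0.129). The young and old rats did not overlap for these 3, nor did they for Tmem132d (15.7, 5.92, 68.4 and 112 CPM, adjusted p = 0.128), Il1rapl2 (106, 82.4, 738 and 445, adjusted p = 0.171), Ttr (6.88, 6.42, 29.3 and 44.8, adjusted p = 0.214) and Apoh (102, 119, 453 and 473, adjusted p = 0.301, edgeR). Such separation was found for 27.2% of all genes tested.

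The transcription factors of PP cells did not pass the test between the ages, and their errors were wide. Etv1 was at 1325 and 804 CPM in the young, 1211 and 969 in old rats and 947 in HFHF-old replicate 1 (old minus young 0.03, SE 0.49). Meis2 was at 955 and 454, 629 and 508, and 778 (-0.31, SE 0.50). Pcsk1 was at 123 and 151, 233 and 102, and 135 (0.27, SE 0.44). None of these passed the test in any comparison of groups, and no member of any of the 22 gene lists did. In old against young, of 29 endoplasmic reticulum stress genes 0 were called (median 0.15), of 31 oxidative stress genes 0 (0.17), of 30 genes of inflammation 0 (0.11) and of 17 genes of growth arrest 0 (0.14), beside a median of -0.02 over all genes. Medians further from 0, again with 0 calls, were found in several lists. Oxidative stress genes were above 0 for 8 of 31 in HFHF-old against old (median -0.57) and 6 of 31 in HFHF-old against young (-0.47), and the oxidoreductase genes of the study for 3 of 7 (-0.48) and 1 of 7 (-0.43). The immediate early genes of digestion were above 0 for 19 of 21 in old against young (median 0.39), 19 of 21 in HFHF-old against old (0.75) and 20 of 21 in HFHF-old against young (1.15). Acinar markers were above 0 for 1 of 14 (median -0.97), stromal and endothelial markers for 1 of 9 (-0.96) and immune markers for 1 of 8 (-0.44) in old against young. In HFHF-old against old these were 10 of 14 (0.67), 5 of 9 (0.41) and 2 of 8 (-0.71), and ductal markers were above 0 for 1 of 9 (-0.88). Their part in the calls between groups was not tested.

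The HFHF diet was compared through the 1 HFHF-old rat with enough PP cells, and its spread was taken from the rats of the other 2 groups. Against the old rats 11 of 10445 genes were called, all higher (0.105%, with 23 by DESeq2). Named by size among those with a gene symbol, these were Vcan, Fam111a, Plaur, Ptgs2, Htra3, Cd55, Timp3, Thbd and Npas2, and the remaining 2, AC142181.2 and LOC683849, were named after their values were seen. Vcan encodes the proteoglycan versican, Htra3 a secreted protease, Timp3 an inhibitor of matrix proteases, and Ptgs2 the inducible cyclooxygenase.

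Most of these differences came from 1 barcode. Vcan was at 9.84, 1.97, 1.39, 2.52 and 210 CPM (log2 fold change HFHF-old minus old 6.53, SE 0.69, edgeR adjusted p = 0.00351), and 155 of the 157 UMIs of HFHF-old replicate 1 lay in 1 of its 49 PP cells. The same cell gave all 52 UMIs of Plaur, all 80 of Ptgs2, 180 of 204 of Htra3, 182 of 193 of Timp3, 120 of 124 of Cd55 and 59 of 66 of Thbd. It held 57227 UMIs and 7938 genes, with Ppy at 8.03% and Pyy at 0.701% of UMIs, 16 UMIs of Etv1, 24 of Meis2, 197 of Dcn, 148 of Col3a1 and 77 of Col1a1. Stromal and endothelial markers made up 0.928% of its UMIs. In the deepest PP cell of each rat this was 1.20% in young replicate 1, with 205 UMIs of Dcn, 132 of Col3a1 and 3 of Vcan, and 0.0504 to 0.226% in the other 5 rats, with 0 to 5 UMIs of Dcn and 0 to 4 of Col3a1.

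Without that barcode, an alternative chosen after seeing the data, 2 genes were called against the old rats, AC142181.2 and LOC683849. The log2 fold change was then 0.44 for Vcan, 2.25 for Htra3, 0.28 for Timp3, 0.40 for Thbd and -0.28 for Cd55. Npas2, a factor of the circadian clock, kept its size at 3.14 but not its call (adjusted p = 0.141, edgeR), with UMIs in 21 cells, and so did Fam111a at 5.74 (adjusted p = 0.203), with UMIs in 23 of 49 cells. Fam111a was at 181 CPM in the barcodes with Ptprc of that rat and at 5.46 to 12.0 in those of the young and old rats. AC142181.2 (log2 fold change 9.05 without the barcode) and LOC683849 (8.37) had UMIs in 46 and 43 of the 49 cells, and in barcodes with Ptprc AC142181.2 was at 641 in that rat against 0.206 to 52.0 in the young and old rats, so that both immune and PP barcodes of that library were high. Without old replicate 1 no gene was called.

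**Figure D5:**
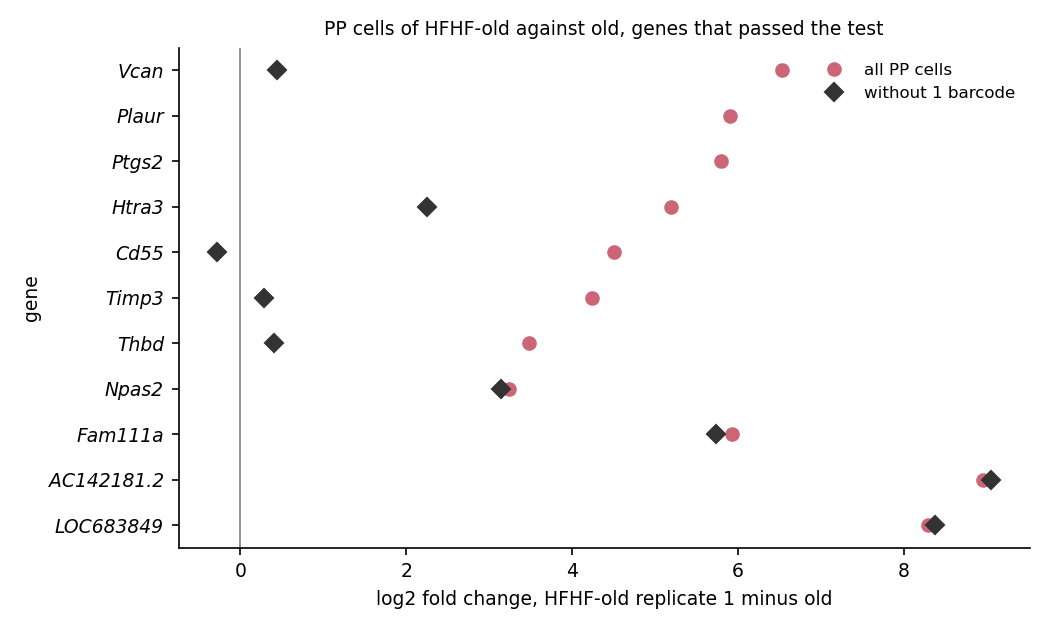
Log2 fold change of PP cells of HFHF-old replicate 1 minus the old rats for the 11 genes called with all 49 PP cells (circles), and for those still tested without the barcode with the most Vcan UMIs (diamonds). Vcan moves from 6.53 to 0.44 and Cd55 from 4.51 to -0.28, while AC142181.2, LOC683849, Npas2 and Fam111a stay above 3.

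Against the young rats 14 genes were called in the same HFHF-old rat, all higher (0.134%, with 17 by DESeq2), and 6 without that barcode, among them Camk4, Tmem132d, AC127784.2, AC142181.2 and LOC683849. This comparison shares its HFHF-old sample with the one before. Tmem132d, a membrane protein of the nervous system, was at 15.7, 5.92, 68.4, 112 and 457 CPM (HFHF-old minus young 5.50, SE 0.58, adjusted p = 0.00303, edgeR), with UMIs in 36 of 49 cells and at 4.89 CPM in barcodes with Ptprc. Camk4 was at 0 and 0.494 in the young rats and at 53.4 in the HFHF-old rat (6.99, SE 0.83, adjusted p = 0.00614), with UMIs in 17 cells. For both genes the old rats lay between the young rats and the HFHF-old rat. Without old replicate 1 no gene was called, and without young replicate 1 there were 503 calls.

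The difference between old and young rats was also compared between PP and alpha cells, by a test of the interaction. It differed for 2 of 11703 genes (0.0171%). Pappa2, a protease that frees insulin-like growth factors from their binding proteins, was at 114 and 47.2 CPM in young and at 26.8 and 11.1 in old PP cells, and at 39.7 and 26.4 in young and 66.1 and 126 in old alpha cells (difference of log2 fold changes -3.95, SE 0.43, adjusted p = 0.00111, edgeR). Slc38a5 was at 33.0 and 32.6 CPM in young and 5.36 and 10.1 in old PP cells, and at 455 and 569 against 885 and 743 in alpha cells (-2.49, SE 0.31, adjusted p = 0.00301). With the limit on the hormones at 20% Slc38a5 was at -1.79 and did not pass (adjusted p = 0.0915). In young replicate 2 and old replicate 2, Slc38a5 was also 3.25 higher on the log2 scale in Gcg-holding than in other PP cells (adjusted p = 2.44e-09, edgeR). This call from 2 rats was lost in at least 1 alternative (highest adjusted p = 0.406, edgeR or DESeq2). Gcg-holding cells were 7.89 and 37.4% of PP cells in the young and 5.71 and 10.6% in the old rats. Without Gcg-holding PP cells, an alternative chosen after seeing the data, the difference of log2 fold changes was -2.87 for Slc38a5 (adjusted p = 0.00423) and -4.27 for Pappa2 (adjusted p = 0.000354, edgeR), and 25 genes were called in all. The same test against beta cells called 0 of 11908 genes (0% of those tested), with 453 at an unadjusted p under 0.05 and 0 by DESeq2.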

How the data were processed

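Islets of 6 rats were sequenced with the 10x Genomics 3' kit. The deposited values are UMI counts (genes by barcodes) in the authors' filtered matrices, whose headers name Cell Ranger 5.0.0, aligned to Rnor 6.0 per the submitters' processing notes. The files pair 32883 Ensembl identifiers with symbols and give no coordinates.

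Cells were classed by hormone share as described. UMIs were summed per rat and class (at least 10 cells), without the genes used by the rule (Ppy, Pyy, Gcg, Ins1, Ins2, Sst, Ptprc and 13 mitochondrial genes). The sums of PP cells held 978725 to 4373694 UMIs in 5 rats, all genes counted. They were tested with edgeR 4.0.16 (TMM, filterByExpr, glmQLFTest) in R 4.3.3, checked on simulated data, and with calls at an adjusted p (Benjamini-Hochberg) below 0.05 and a fold change over 1.5. All groups shared 1 fit. DESeq2 1.42.0, other limits, depth limits, left-out rats and the replicate block were alternatives. No doublet caller was run. The alternatives without the top 1% of gene number (29 PP cells) and without cells over 2 times the median UMIs limit depth only. They do not tell doublets from deep cells. The latter left out 401 of 1118 PP cells. In old replicates 1 and 2 it took 29 and 222, where 28 and 206 held at least 5000 UMIs. Replicate numbers name rats and pair none, and SE is the log2 fold change divided by the root of F. CPM includes the TMM factor of each fit, so the values of a gene differ slightly between comparisons.

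Named were the 10 largest called genes in each direction with no overlap between groups, or 1 direction in every rat, and mean log2 CPM over 3, or where few were called those of smallest p, besides members of 22 gene lists. A few genes that this rule or the lists named are not reported here, nor are most called genes that it did not name. Genes known by clone or LOC names were counted, or named where few. The cells, lists and comparisons were chosen with earlier results of these data known.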

Additional observations from a re-analysis of the deposited data

Results flagged for a closer look

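Pappa2 and Slc38a5 were singled out because their difference between old and young rats was not the same in PP and alpha cells, by a test of the interaction (edgeR). The difference of log2 fold changes was -3.95 for Pappa2 and -2.49 for Slc38a5. Over 8 alternatives Pappa2 ranged from -4.75 to -2.53 and passed in each (highest adjusted p 0.00344), while Slc38a5 ranged from -3.35 to -1.79 and did not pass with the hormone limit at 20% (adjusted p = 0.0915). In 2 rats Slc38a5 was 3.25 higher on the log2 scale in Gcg-holding than in other PP cells. That call was lost in at least 1 alternative. Without Gcg-holding PP cells the difference of log2 fold changes of Slc38a5 was -2.87 (adjusted p = 0.00423, edgeR). In PP cells Pappa2 rested on 121 and 100 UMIs in the young and 20 and 23 in the old rats, and Slc38a5 on 35 and 69 against 4 and 21.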

How the results depend on the processing

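Counts of called genes depended on depth and on single rats, and the cause was not tested. For old against young (2 calls) there were 8 with DESeq2, 61 with no filter, 14 with the hormone limit at 20%, 6 without Gcg-holding cells, 6 without cells over 2 times the median UMIs, and 1 in cells of at least 5000 UMIs. For HFHF-old against old (11) there were 23, 166 and 18 with DESeq2, no filter and no Gcg-holding cells, 2 without the top 1% of gene number, 0 without cells over 2 times the median UMIs and 2 without the barcode with most Vcan. For HFHF-old against young (14) these were 118 with no filter, then 4, 3 and 6. Leaving out 1 rat at a time gave 0 to 98, 0 to 318 and 0 to 503 calls in the 3 comparisons. Where edgeR called 0 genes, 252 to 896 had an unadjusted p under 0.05, and DESeq2 was not run on those settings. The replicate block gave 31, 41 and 23 calls; the labels share only a number, and each rat is a different animal, so the block is no pairing.

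PP against alpha cells (1142) gave 581 calls with no replicate block, 138 without cells over 2 times the median UMIs, and 738 to 1221 without 1 rat. PP against beta cells (3223) gave 1945 with no block, 1027 without cells over 2 times the median and 2665 to 2904 without 1 rat. PP against delta cells (585) gave 381, 190, 248 in cells of at least 5000 UMIs, and 135 to 529. Gcg-holding against other PP cells (319) gave 1 with no block, 44 with DESeq2, 93 with Gcg at 5%, 4 without cells over 2 times the median and 32 in cells of at least 5000 UMIs, and no rat could be left out. The age difference of PP against alpha cells (2) gave 15 in cells of at least 5000 UMIs, 25 without Gcg-holding PP cells and 51 to 158 without 1 rat, and against beta cells (0) 0 to 1.

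Signs turned for Cd55 against the old rats at -0.31 without the top 1% of gene number, and without cells over 2 times the median for Cd55 (-1.89), Timp3 (-0.75) and Thbd (-1.11), and against the young rats for Timp3 (-0.34), Htra3 (-0.11) and Rnf19b (-0.11). Without the barcode with most Vcan, Cd55 (-0.28, old) and Vcan (-0.86, young) turned.

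Old minus young in the share of barcodes kept, 0.0108 percentage points, was -0.166 with the limit at 1% and -0.419 after thinning to 1000 UMIs, and -1.40 to 1.42 without 1 rat. Among hormone cells it was -1.39 with the limit at 20% and -3.69 to 8.36 without 1 rat, and HFHF-old minus old was -15.0 without the top 1% of gene number and 2.40 in cells of at least 5000 UMIs. For the Gcg-holding share old minus young was -2.92 with the limit at 20%, -8.87 with Gcg at 5% and -29.3 to 0.29 without 1 rat, and HFHF-old minus old, -0.02, was -4.51 with the limit at 20%, -4.58 with Gcg at 1% and 4.58 in cells of at least 5000 UMIs. Without barcodes over 100000 UMIs there were 2, 8 and 13 calls between the groups and 868, 2960 and 449 against alpha, beta and delta cells. The settings with 5000 UMIs, without barcodes over 100000 UMIs and without the Vcan barcode, the age difference without Gcg-holding PP cells, and the shares without 1 rat, were chosen after seeing the data. PP cells of the HFHF-old group came from 1 rat for genes, which the depth of its library cannot offset.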
